A study of Homo sapiens with 26 samples.

Results

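The 28 genes described here encode enzymes of cholesterol synthesis, the proteins that sense sterol in the endoplasmic reticulum, and proteins that move cholesterol within, into or out of the cell. They were chosen by name, and all 28 were found among the 26485 genes of both count tables. All 28 passed the filter on low counts in the cell culture libraries, where 14905 genes were tested, and in the xenograft libraries, where 15960 genes were tested. The 28 genes fall into 7 enzymes of the mevalonate part (ACAT2, HMGCS1, MVK, PMVK, MVD, IDI1, FDPS), 11 enzymes of the squalene and sterol part (FDFT1, SQLE, LSS, CYP51A1, TM7SF2, MSMO1, NSDHL, HSD17B7, EBP, SC5D, DHCR7), 5 genes of SREBP control (INSIG1, INSIG2, SREBF1, SREBF2, SCAP) and 5 genes of uptake, transport and efflux (STARD4, ABCA1, ABCG1, NPC1, MYLIP).

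RNA was sequenced from KELLY, an established human neuroblastoma line in which the oncogene MYCN is amplified. The cells carried F1HUTG, a lentiviral vector that doxycycline switches on and that also holds GFP, either empty (EV) or with a hairpin RNA named sh4 or shAMB and directed against RUNX1T1, which encodes a co-repressor of transcription. The 3 lines were kept for 72 h in either DMSO or doxycycline, with 3 libraries per group and 18 in all. A second set held 8 tumours grown from KELLY cells in mice, 4 labelled control with control food and 4 labelled RUNX1T1 KO with doxycycline food. The methods of the study describe these hosts as female NSG mice, a few weeks old at engraftment, which lack mature lymphocytes and received hairpin-carrying cells under the skin. The tumours labelled KO are therefore described there as knock-down tumours, and all 8 cell sources carried a hairpin according to that account. Doxycycline food and hairpin induction thus go together in the xenografts, with no empty-vector tumours, and cannot be told apart there. No time on doxycycline food was at hand for these tumours. The study's text gives the tumours its hairpin number 1, the one built on an Ambion siRNA, and the name shAMB points to that hairpin, but the tumours' own labels name none. Whether a KELLY line was a clone or a pool was not given in the sources used here. Nothing says that replicates were separate cultures, so that p-values measure only the spread between these libraries, and every culture direction rests on taking the column names Neg and Pos to mean DMSO and doxycycline.

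Cholesterol is built from acetyl-CoA. The mevalonate part of the pathway makes farnesyl diphosphate, which also feeds isoprenoids. The later enzymes join it into squalene, close squalene into lanosterol and turn that, step by step, into cholesterol. The SREBP transcription factors switch these enzymes on when the membrane of the endoplasmic reticulum is poor in sterol, because SCAP then escorts SREBP to the Golgi for cleavage, whereas the INSIG proteins hold SCAP back when sterol is plentiful. Surplus sterol activates the LXR receptors, whose known targets include the efflux pumps ABCA1 and ABCG1 and the ubiquitin ligase MYLIP, which degrades lipoprotein receptors. Cells in culture can both make cholesterol and take it up from serum.

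Total expected counts per library were 35115915 to 54736733 in culture and 47346063 to 62378060 in xenografts, and a library held between 31 and 21794 counts of any of the 28 genes. RUNX1T1 mRNA itself was not called changed within any line or between the xenograft groups (log2 fold change -0.11, 0.06, -0.16 and -0.23 for the sh4, shAMB and EV lines and the xenografts, adjusted p 0.117, 0.378, 0.672 and 0.229), so groups are called by their labels. In DMSO it was lower in the sh4 line than in the EV line (-0.29, adjusted p = 0.0144), and its doxycycline effect was more positive in shAMB than in EV (0.21, adjusted p = 0.0353). The study itself judged the knock-down by protein. It reported less RUNX1T1 on western blots of hairpin-carrying KELLY cells after 72 h of doxycycline, and loss of RUNX1T1 staining in KELLY tumours. Protein cannot be read from the counts used here. MYCN mRNA was higher in sh4 (0.68), shAMB (1.57) and the xenografts labelled knock-out (1.46). Some libraries stood apart in how they measured GC-rich genes: relative to their own group, genes of at least 58% GC sat 0.64 above genes of under 45% GC on the log2 scale in sh4 doxycycline replicate 3, 0.62 above in knock-out xenograft replicate 1, while the value was -0.64 in knock-out replicate 4 and -0.59 in control xenograft replicate 1. Across the other libraries it ran from -0.42 to 0.38.

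The regulatory letters of the 28 genes were looked for in the RefSeq promoter windows of build GRCh38.p14, which run from 250 bases before to 50 bases after a start. Windows were at hand for 24 of the 28 genes (30 windows). The letters below were searched on both strands: the E-box CACGTG, the sterol regulatory element letters TCACNCCAC, the short form CACCCCAC, whose letters the longer form can contain, and the CCAAT box read as CCAAT. The E-box stood in 6 of the 30 windows (20.0%) against 7.3% of all 35116 windows, in LSS, SC5D (with 2 starts), INSIG1, SCAP and ABCA1. The 2 SC5D windows overlap and hold the same site, which is thus counted in both, and the LSS letters lie after the start. The CCAAT letters stood in 19 of the 30 windows (63.3%) against 34.6% of all. The sterol regulatory letters stood in 1 window (3.3% against 1.1%), that of SREBF2, and the short form in 2 (6.7% against 2.8%), those of SREBF2 and ABCA1. The windows below, each upstream of the RefSeq start and of the GENCODE gene, are those of genes whose levels carry the results, with the searched letters in capitals, where ATTGG is CCAAT read on the other strand. A match is a description of letters and not of a bound site.
SREBF2 (SRE letters, chr22:41832957-41832995, plus strand): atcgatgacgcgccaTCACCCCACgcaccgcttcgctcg
ABCA1 (short SRE letters, chr9:104928361-104928398, minus strand): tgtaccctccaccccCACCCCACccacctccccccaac
ABCA1 (E-box, chr9:104928282-104928317, minus strand): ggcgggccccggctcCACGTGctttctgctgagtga
INSIG1 (CCAAT box, chr7:155297693-155297727, plus strand): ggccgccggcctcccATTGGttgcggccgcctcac
SC5D (E-box, chr11:121292625-121292660, plus strand): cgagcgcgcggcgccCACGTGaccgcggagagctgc
FDPS (CCAAT box, chr1:155308675-155308709, plus strand): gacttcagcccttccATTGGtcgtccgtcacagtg
MYLIP (CCAAT box, chr6:16128962-16128996, plus strand): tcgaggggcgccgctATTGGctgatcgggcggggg

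Levels were compared between genes only as CPM per kilobase of gene length, where CPM is the count relative to the TMM-adjusted library total. In the EV line in DMSO, FDPS stood highest at 141 ± 6.48 (SD, n = 3), followed by SQLE at 94.1 ± 6.42 and ACAT2 at 90.4 ± 3.24, and the latter pair lay within their SDs of each other. The enzymes FDFT1, HMGCS1 and IDI1 came next at 78.1 ± 1.07, 73.4 ± 6.26 and 70.8 ± 3.19, again within their spread. At the other end stood ABCG1 (1.54 ± 0.121), TM7SF2 (1.42 ± 0.196) and ABCA1 (0.329 ± 0.040). The pumps ABCG1 and ABCA1 differed from each other beyond their spread, whereas ABCG1 did not differ beyond it from the enzymes next to it in the order, MVD (2.44 ± 0.835) above and TM7SF2 below. In the control xenografts FDPS again stood highest (124 ± 17.1, n = 4), while ABCA1 measured 1.05 ± 0.166. The culture and xenograft tables were scaled separately, so that levels set across them are side by side values and were not tested.

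**Figure D1:**
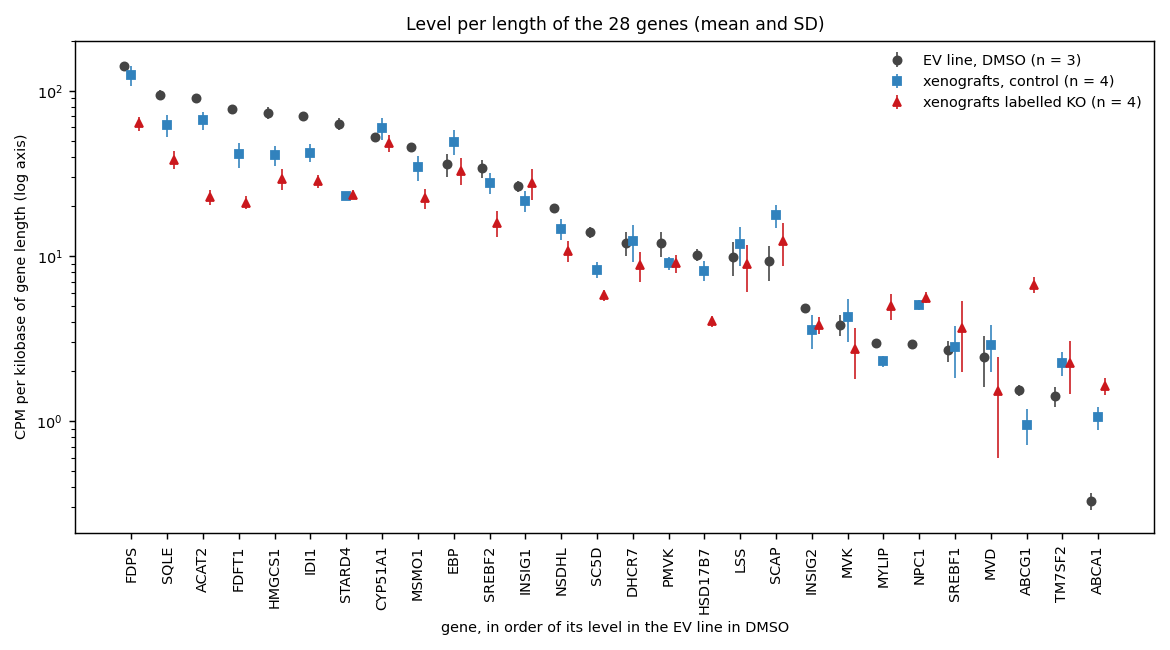
Level of each of the 28 genes as CPM per kilobase (log axis, mean with SD) in the EV line in DMSO (circles), control xenografts (squares) and xenografts labelled knock-out (triangles). FDPS is highest and ABCA1 lowest in the EV line, and ABCG1 is the gene whose triangle lies farthest above its square.

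In the xenografts most enzymes of cholesterol synthesis were lower in the tumours labelled knock-out, and the efflux genes ABCG1 and ABCA1 were higher. Of the 28 genes 13 fell and 3 rose (edgeR quasi-likelihood test, adjusted p under 0.05), where 19.9% of all genes tested fell and 21.2% rose. Those that fell were 11 of the 18 enzymes together with SREBF2 and SCAP. Those that rose were ABCG1, MYLIP and ABCA1. The median log2 fold change was -0.64 over the 7 mevalonate enzymes, -0.51 over the 11 later enzymes and 0.63 over the 5 transport genes, beside 0.02 over all genes tested. In bulk tumours, fewer cells of a type and less RNA per cell cannot be told apart.

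Within the mevalonate part, ACAT2, the cytosolic thiolase that makes acetoacetyl-CoA (chr6:159762045-159779112 in hg38), measured 109, 83.6, 111 and 109 CPM in the control xenografts and 35.6, 32.8, 40.3 and 32 CPM in those labelled knock-out. The groups did not overlap, although control replicate 2 was low, and the log2 fold change was -1.55 ± 0.12 (SE) with adjusted p = 8.44e-06. FDPS, farnesyl diphosphate synthase (chr1:155308748-155320666), measured 179.9, 135, 187 and 169.8 CPM in the control xenografts and 89.2, 75.7, 95.5 and 83.5 CPM in those labelled knock-out, again without overlap (-0.96 ± 0.12 (SE), adjusted p = 0.000109). IDI1, the isomerase of isopentenyl diphosphate, ranged from 74.5 to 98.4 in controls and from 53.2 to 66 in tumours labelled knock-out and fell by 0.57 on the log2 scale (adjusted p = 0.00158). HMGCS1, which makes HMG-CoA, also fell (-0.48, adjusted p = 0.0135), but its control replicate 2 and knock-out replicates 2 and 3 lay together at 176 to 177 CPM. The kinases MVK (-0.64, adjusted p = 0.0818) and PMVK (0.00) and the decarboxylase MVD (-0.94, adjusted p = 0.0886) did not pass. MVK and MVD passed under 4 alternatives each: DESeq2 (-0.65 and -0.95), removal of GC trends (-0.65 and -1.11), and without control replicate 1 (-0.81 and -1.17) or knock-out replicate 1 (-0.88 and -1.40).

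In the squalene and sterol part, FDFT1, squalene synthase, measured 92.2, 63.3, 93.3 and 94.4 CPM in the control xenografts and 39.9, 45.1, 48.4 and 41.3 CPM in those labelled knock-out. Its groups lay apart (-0.97 ± 0.13 (SE), adjusted p = 0.000236). SQLE, the epoxidase that sets the pace of the later pathway, measured 186, 148, 191 and 216 CPM in the control xenografts and 101, 124, 129.6 and 104 CPM in those labelled knock-out and fell by 0.69 (adjusted p = 0.0015). HSD17B7, a keto-sterol reductase, fell from 11.8 ± 1.64 to 5.82 ± 0.44 CPM (SD, n = 4, log2 fold change -1.02, adjusted p = 0.000326). MSMO1, which oxidises methyl groups of the sterol ring (-0.63), EBP, a sterol isomerase (-0.58), and SC5D, lathosterol oxidase (-0.51), fell with groups that did not overlap. NSDHL, a sterol dehydrogenase, fell by 0.45 (adjusted p = 0.0272), a call lost with upper quartile factors (-0.34), with a replicate block (-0.44) and without control replicate 3 (-0.39) or 4 (-0.39) or knock-out replicate 2 (-0.45) or 4 (-0.36). LSS (-0.42), CYP51A1 (-0.31), TM7SF2 (0.01) and DHCR7 (-0.48) did not pass, with unadjusted 95% intervals of -0.96 to 0.13, -0.58 to -0.03, -0.58 to 0.59 and -0.93 to -0.04. DHCR7 passed without control replicate 1 (-0.66) and without knock-out replicate 1 (-0.58), LSS without control replicate 1 (-0.63), and CYP51A1 without control replicate 2 (-0.42) and without knock-out replicate 3 (-0.38). DESeq2 called 16 of the 28 genes lower in the xenografts in place of 13, and 3372 of all genes tested in place of 3173.

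Among the genes of SREBP control, SREBF2, which encodes the SREBP that chiefly drives cholesterol synthesis, measured 120.1, 169.9, 141 and 156 CPM in the control xenografts and 104, 77.4, 86.2 and 69.2 CPM in those labelled knock-out. It fell by 0.80 with no overlap (adjusted p = 0.00109). SCAP, the escort of SREBP, fell by 0.53 (adjusted p = 0.0462), with overlap between 57.6 to 83.5 and 35.8 to 72.2 CPM, and lost its call with upper quartile factors (-0.43), at a minimum of 1 CPM (-0.50), with a replicate block (-0.56) and without 6 of the 8 libraries in turn, namely control replicates 2, 3 and 4 (-0.51, -0.48 and -0.50) and knock-out replicates 2, 3 and 4 (-0.50, -0.55 and -0.39). INSIG1, an SREBP target and its brake, measured 56, 52.3, 67.7 and 71.7 CPM in the control xenografts and 60.4, 93.2, 95 and 69.2 CPM in those labelled knock-out, a difference of 0.36 that did not pass (adjusted p = 0.0947) but did with upper quartile factors (0.46) and without knock-out replicate 1 (0.47). INSIG2 (0.10) and SREBF1 (0.40) did not pass, and SREBF1 had the wide interval -0.38 to 1.17.

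The transport genes held the largest fitted change of the 28, that of ABCG1. ABCG1, which hands cholesterol to lipoprotein particles (chr21:42199689-42297244), measured 2.58, 3.66, 3.01 and 2.02 CPM in the control xenografts and 22.3, 18.7, 21.2 and 17.6 CPM in those labelled knock-out. Each tumour labelled knock-out stood above each control, a 7.1-fold difference (log2 2.83 ± 0.19 (SE), adjusted p = 5.27e-06). MYLIP (chr6:16129086-16148248) measured 7.26, 7.79, 6.68 and 6.62 CPM in the control xenografts and 11.8, 18.3, 16.2 and 15.1 CPM in those labelled knock-out (log2 1.12 ± 0.15 (SE), adjusted p = 0.000249), without overlap. ABCA1, which loads cholesterol onto apolipoproteins (chr9:104781006-104928155), measured 10.1, 13.7, 10.1 and 10.5 CPM in the control xenografts and 16.2, 16.7, 20.0 and 15.6 CPM in those labelled knock-out (log2 0.63 ± 0.14 (SE), adjusted p = 0.00467), with control replicate 2 nearest to the knock-out group. NPC1, the lysosomal exporter (0.15, interval -0.07 to 0.37), and STARD4, a cytosolic sterol carrier (0.02, interval -0.15 to 0.20), did not pass. Macrophages also express ABCA1 and ABCG1 at high levels, and whether mouse reads were removed was not given in the sources used here. The summed level of 7 macrophage markers was 1.17 to 1.63 CPM in controls and 1.86 to 2.81 CPM in tumours labelled knock-out, and none was at 0 in every library of a group, but PTPRC, CD14, AIF1, LYZ and ITGAM were too low to be tested, at most 0.184 CPM in any xenograft. CD68 ran from 0.769 to 1.2 and from 1.11 to 1.97 CPM, and CSF1R from 0.251 to 0.376 and from 0.404 to 0.732 CPM. Neither was called changed in the xenografts. In the KELLY cultures the 7 macrophage markers summed to 0.65 to 0.776 CPM in shAMB DMSO and 1.52 to 2.33 CPM in shAMB doxycycline. The part of these markers in the ABCA1 and ABCG1 values was not tested. The 10 sympathetic neuroblast markers summed to 2908 to 3833 CPM in controls and 1990.0 to 3180.0 CPM in tumours labelled knock-out. The ranges for both groups were 0.982 to 1.32 and 0.767 to 2.19 CPM for 6 endothelial markers, 15.5 to 27.1 and 19.9 to 32.1 CPM for 6 fibroblast markers, and 5.17 to 6.97 and 2.6 to 3.16 CPM for 4 Schwann cell markers. In the KELLY cultures the 6 fibroblast markers summed to 34.5 to 41.2 CPM in shAMB doxycycline and 68.2 to 86.9 CPM in sh4 doxycycline. The macrophage and fibroblast sums therefore do not measure host cells alone.

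**Figure D2:**
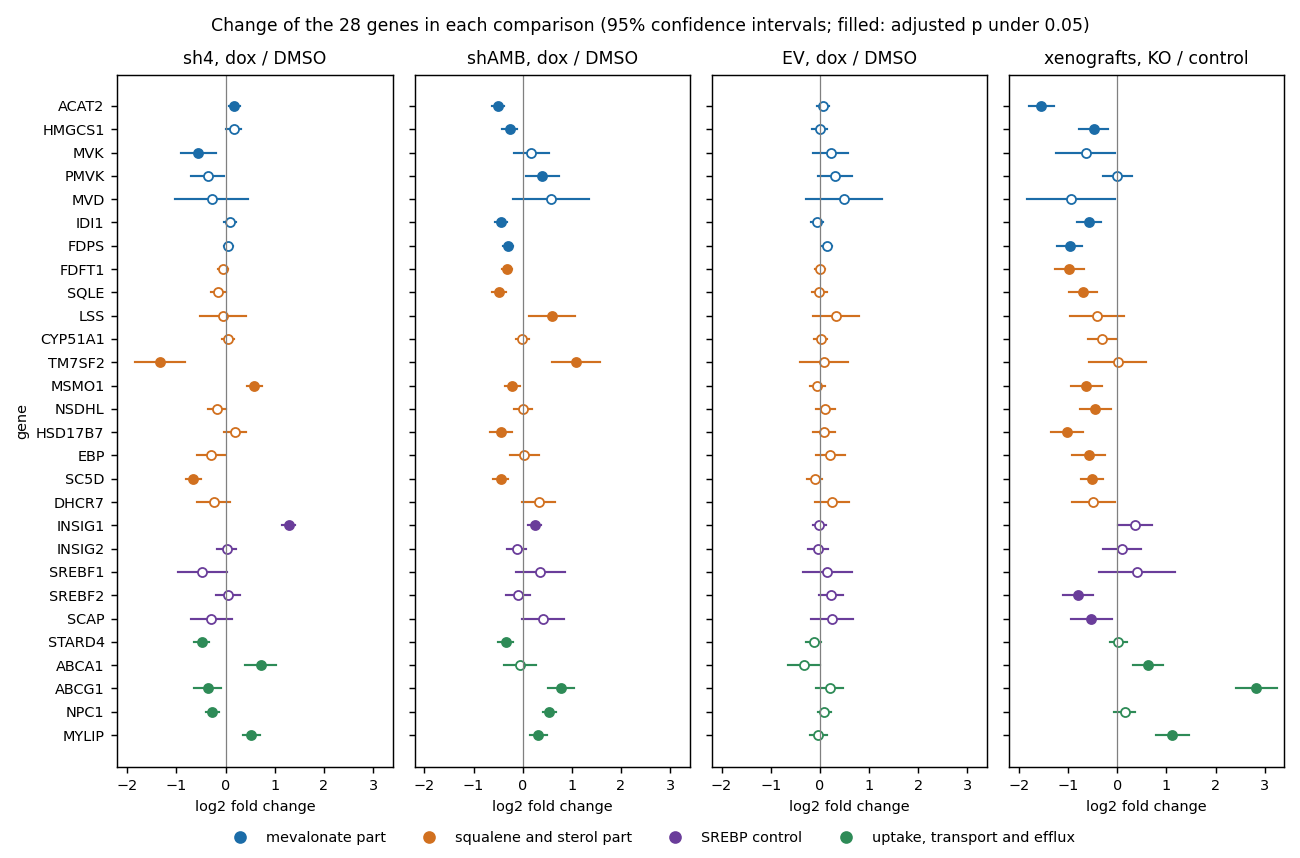
Log2 fold change (points) with 95% confidence interval (lines) of each of the 28 genes within the sh4, shAMB and EV lines and between xenograft groups, coloured by role and filled where adjusted p was under 0.05. The sh4 panel has 11 filled points, the shAMB panel 17, the EV panel 0 and the xenograft panel 16, and in the last of these the enzymes lie left of 0 except PMVK and TM7SF2, which lie on it.

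In the shAMB line, of the 18 enzymes, 9 were called lower after doxycycline, 3 (PMVK, LSS and TM7SF2) were called higher and 6 were not called. ABCG1, NPC1, MYLIP and INSIG1 were called higher. Of the 28 genes 10 fell and 7 rose (35.7% and 25%), where 28.4% of all genes tested fell and 37.6% rose, so that the share that fell was near that of all genes. The genes that fell were 4 mevalonate enzymes, 5 later enzymes and STARD4. Their sizes were small, and only 1 of the 10 (ACAT2) and 4 of the 7 reached a log2 fold change of 0.5. Among all genes tested, 1983 of the 4238 that fell and 3944 of the 5602 that rose reached it. The median over the 28 genes was -0.0026, against 0.10 over all genes tested.

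ACAT2 measured 146, 148 and 149 CPM in DMSO and 106, 110.4 and 96.9 CPM in doxycycline in this line. The doxycycline libraries all lay below (-0.50 ± 0.06 (SE), adjusted p = 1.08e-06). SQLE measured 303, 311 and 288 CPM in DMSO and 219.9, 224 and 199 CPM in doxycycline (-0.49, adjusted p = 1.56e-05), again apart. IDI1 (-0.43), FDFT1 (-0.32), FDPS (-0.30), HMGCS1 (-0.27), HSD17B7 (-0.45), SC5D (-0.45) and MSMO1 (-0.21) fell by less, each without overlap between the groups. STARD4 measured 261, 283 and 261 CPM in DMSO and 221, 213 and 198 CPM in doxycycline (-0.35, adjusted p = 0.000679).

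Of the genes that rose in shAMB, TM7SF2, a sterol reductase, measured 1.97, 1.46 and 2.01 CPM in DMSO and 3.34, 3.74 and 4.45 CPM in doxycycline. It lay apart (1.08 ± 0.23 (SE), adjusted p = 0.000651) but at a low level. ABCG1 measured 5.45, 5.69 and 5.38 CPM in DMSO and 9.61, 9.51 and 9.3 CPM in doxycycline (0.78 ± 0.12 (SE), adjusted p = 5.15e-05), with all doxycycline libraries above all DMSO libraries and close to each other. NPC1 measured 12.6, 13.8 and 13.5 CPM in DMSO and 18.8, 19.3 and 19.9 CPM in doxycycline (0.54, adjusted p = 1.32e-06). MYLIP (0.32) and INSIG1 (0.24) rose as well, and ABCA1 did not pass (-0.06, interval -0.38 to 0.27). LSS, lanosterol synthase (0.59, adjusted p = 0.0264), and PMVK (0.40, adjusted p = 0.0389) passed narrowly. LSS lost its call without DMSO replicate 1 (0.61) or 2 (0.50) or doxycycline replicate 3 (0.46), PMVK without DMSO replicate 1 (0.36) or 2 (0.37) or doxycycline replicate 2 (0.35) or 3 (0.37), and MSMO1 without DMSO replicate 2 (-0.17) or doxycycline replicate 3 (-0.16). DHCR7 passed only without doxycycline replicate 1 (0.42). Under RLE factors, in DESeq2 and without a filter on low counts, 6 of the 28 genes were called higher in place of 7. Of all genes tested, 4936, 4828 and 5438 were called higher there, in place of 5602.

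GC content moved with the shAMB values. Over all genes tested, the median log2 fold change in shAMB was 0.82 for genes of at least 58% GC and -0.13 for genes of under 45% GC, and among the 28 genes the 10 that fell had a median exon GC of 41.4% and the 7 that rose 53.7%. With trends in GC content and gene length removed from each library, 8 of the 28 genes rose and 9 fell in shAMB. Of all genes tested, 6795 rose and 3625 fell in that setting, in place of 5602 and 4238. ABCG1 (0.70), NPC1 (0.62), FDPS (-0.42) and SQLE (-0.30) then kept their call and direction, and INSIG1 (0.49) and MYLIP (0.50) were larger. ACAT2 (-0.16), IDI1 (-0.11), FDFT1 (-0.11), SC5D (-0.27) and TM7SF2 (0.37) were still called at smaller values. HMGCS1 (-0.01), HSD17B7 (-0.09), STARD4 (-0.04), LSS (0.23) and PMVK (0.07) were no longer called, and MSMO1 turned positive (0.13). SREBF2, the driver of the pathway, was called lower only in this setting (-0.42 against -0.09). In the xenografts the same removal left the 13 falls and 3 rises in place, with ACAT2 at -1.46 and ABCG1 at 2.85, and called 4 further enzymes lower (MVK, MVD, LSS and DHCR7). Calls also grew among all genes tested there, to 4022 lower and 4118 higher in place of 3173 and 3382.

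**Figure D3:**
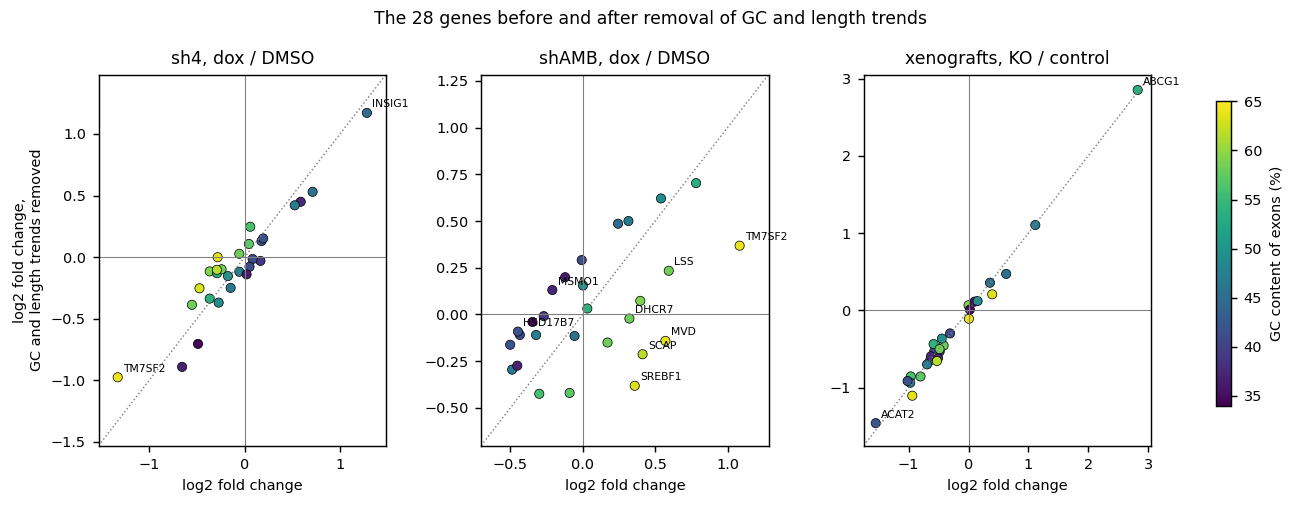
Log2 fold change of the 28 genes as fitted (horizontal axis) and with trends in GC content and gene length removed (vertical axis), in sh4, shAMB and xenografts, coloured by exon GC content in percent, with equality as a dotted line. In the shAMB panel GC-rich genes such as TM7SF2, MVD and SREBF1 lie below the line and GC-poor genes such as MSMO1 above it, while the xenograft points lie close to it.

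In the sh4 line INSIG1 rose most among the 28 genes, and of the 7 mevalonate enzymes only ACAT2 and MVK were called, in opposite directions. Of the 28 genes 5 rose and 6 fell (17.9% and 21.4%), where 22.9% of all genes tested rose and 18% fell, so that both shares were near those of all genes. Those that rose were INSIG1, ABCA1, MSMO1, MYLIP and ACAT2. Those that fell were TM7SF2, SC5D, MVK, STARD4, ABCG1 and NPC1.

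INSIG1 (chr7:155297776-155310235) measured 67.5, 70.1 and 70.0 CPM in DMSO and 179, 173 and 153 CPM in doxycycline. Each doxycycline library lay far above each DMSO library, and the difference was 2.43-fold (log2 1.28 ± 0.06 (SE), adjusted p = 2.83e-10). MSMO1 measured 86.6, 95.6 and 95.5 CPM in DMSO and 148, 145 and 125 CPM in doxycycline (log2 0.59 ± 0.07 (SE), adjusted p = 9.52e-06), without overlap. ABCA1 measured 2.94, 2.62 and 2.99 CPM in DMSO and 4.86, 4.57 and 4.57 CPM in doxycycline (log2 0.71 ± 0.15 (SE), adjusted p = 0.00125), and MYLIP 9.46, 8.87 and 9.77 CPM in DMSO and 14.7, 13.1 and 12.7 CPM in doxycycline (log2 0.53, adjusted p = 6.92e-05). Both lay apart. ACAT2 rose by 0.18 (adjusted p = 0.017), a call lost without a filter on low counts (0.15) and without DMSO replicate 1 (0.12) or doxycycline replicate 1 (0.14) or 2 (0.17).

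Of the genes that fell in sh4, SC5D (chr11:121292681-121313410) measured 80.2, 87.2 and 93.5 CPM in DMSO and 58.5, 57.2 and 49.9 CPM in doxycycline. The groups lay apart (log2 -0.65 ± 0.07 (SE), adjusted p = 3.21e-06). STARD4 measured 212, 225 and 236 CPM in DMSO and 171, 167 and 142 CPM in doxycycline (log2 -0.49, adjusted p = 6.71e-05), also apart, as was NPC1 (-0.27, adjusted p = 0.00198). TM7SF2 (chr11:65111845-65116384) measured 3.48, 2.6 and 2.4 CPM in DMSO and 0.732, 0.993 and 1.67 CPM in doxycycline (log2 -1.33 ± 0.24 (SE), adjusted p = 0.000331), and its doxycycline replicate 3 was nearest to DMSO. MVK fell by 0.55 (adjusted p = 0.0154) and ABCG1 by 0.37 (adjusted p = 0.0304), with overlap in both. MVK lost its call without DMSO replicate 1 (-0.47) or doxycycline replicate 1 (-0.42) or 2 (-0.50), and ABCG1 likewise (-0.22, -0.27 and -0.36).

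The number of sh4 calls depended on doxycycline replicate 3, among all genes as well as among the 28. Of all genes tested, 3968 rose and 4082 fell without this library, in place of 3410 and 2681 with it. Without it 20 of the 28 genes were called in place of 11, the additions being HMGCS1 (0.24), IDI1 (0.14), PMVK (-0.57), MVD (-0.86), NSDHL (-0.29), EBP (-0.44), DHCR7 (-0.45), SREBF1 (-0.80) and SCAP (-0.56). MVD, for example, measured 11.6, 6.84 and 5.9 CPM in DMSO and 3.94, 5.0 and 11.1 CPM in doxycycline, and SREBF1 22.3, 16.2 and 13.1 CPM in DMSO and 9.4, 10.4 and 17.5 CPM in doxycycline. In both genes doxycycline replicate 3 stood far above the other doxycycline libraries. Without DMSO replicate 3, NSDHL (-0.25), EBP (-0.39) and PMVK (-0.48) were called too, and without doxycycline replicate 1 SQLE (-0.20). With GC and length trends removed, the 11 calls remained with INSIG1 at 1.17, ABCA1 at 0.53, SC5D at -0.89 and TM7SF2 at -0.98, and FDPS (0.25), SREBF2 (0.11), FDFT1 (-0.12), SQLE (-0.25) and SREBF1 (-0.25) were called as well. Of all genes tested, 3338 rose and 4218 fell in that setting, in place of 3410 and 2681.

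**Figure D4:**
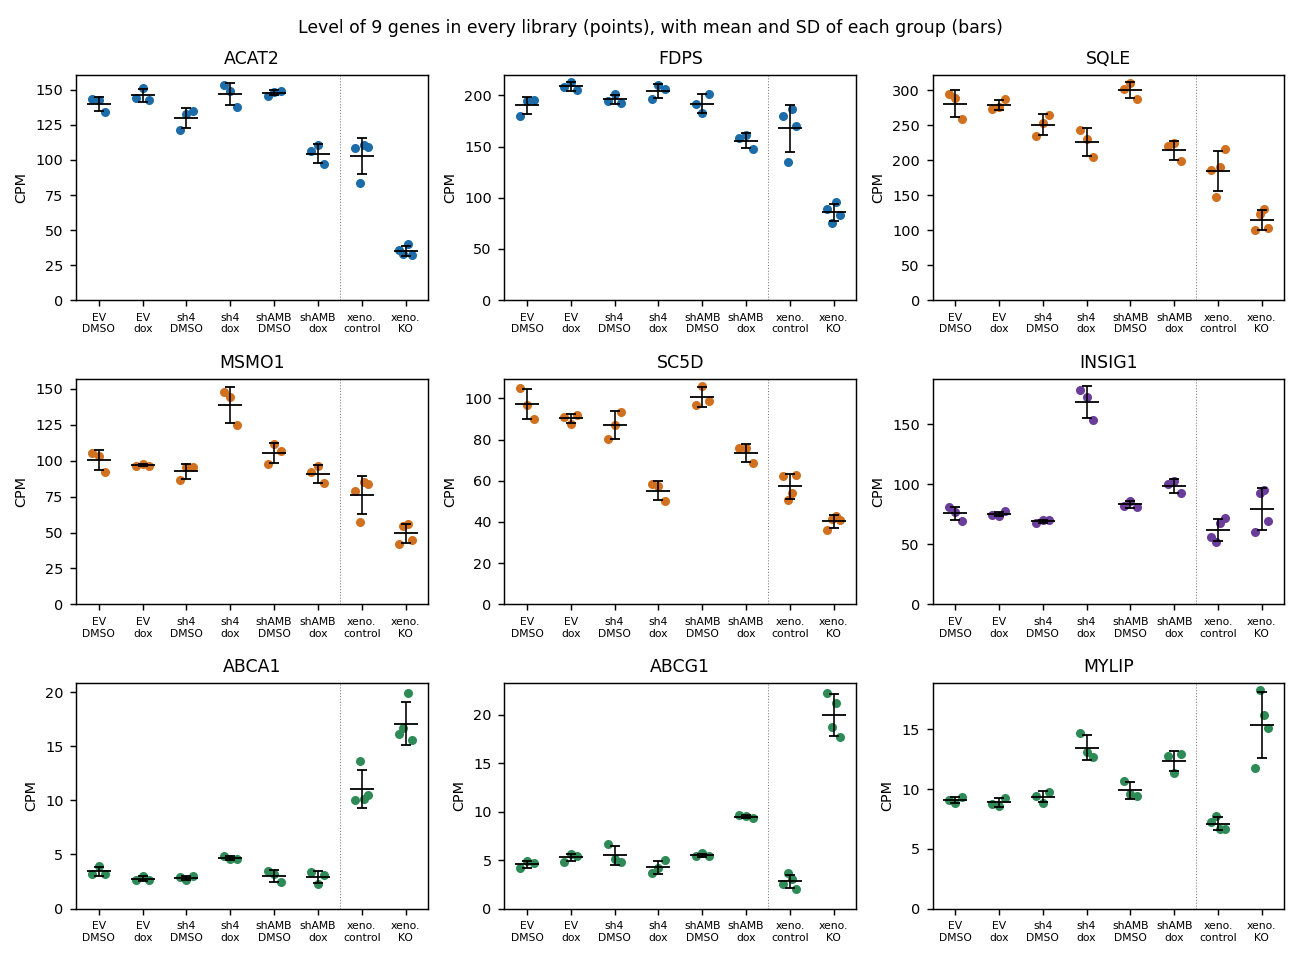
CPM of ACAT2, FDPS, SQLE, MSMO1, SC5D, INSIG1, ABCA1, ABCG1 and MYLIP in every library (points), with the mean and SD of each group (bars), across the 6 culture groups and, right of the dotted line, the 2 xenograft groups. INSIG1 and MSMO1 stand out in sh4 doxycycline, ACAT2 is lower in shAMB doxycycline and in xenografts labelled knock-out, and ABCG1 reaches 17.6 to 22.3 CPM in the latter.

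Doxycycline alone, in the EV line, called none of the 28 genes by edgeR (1 at an unadjusted p under 0.05) or by DESeq2 (1), where 0.0939% of all genes tested were called. Values of INSIG1 were 81.1, 76.9 and 69.9 CPM in DMSO and 74.4, 73.9 and 77.4 CPM in doxycycline, and those of ABCG1 4.17, 4.86 and 4.73 CPM in DMSO and 4.83, 5.58 and 5.39 CPM in doxycycline. The groups overlapped for INSIG1 and, by less, for ABCG1 (0.20, interval -0.07 to 0.47). In DMSO, none of the 28 genes was called between sh4 and EV by edgeR (13 at an unadjusted p under 0.05) or DESeq2 (14), where 1.12% of all genes were. Between the shAMB and EV lines in DMSO only FDFT1 differed (0.25, adjusted p = 0.0182), where 1.52% of all genes did. It measured 164, 162 and 159.6 CPM in EV and 189.5, 199 and 188 CPM in shAMB, and its call was lost without EV replicate 2 (0.25) or 3 (0.24) or shAMB replicate 1 (0.26) or 2 (0.22), and without a filter on low counts (0.24).

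The doxycycline effect was also compared between lines. Against the EV line it differed for 11 of the 28 genes in sh4 (32.6% of all genes) and for 13 in shAMB (45.5% of all genes), and between sh4 and shAMB it differed for 18 (60.9% of all genes). The shares of the 28 genes thus lay near those of all genes. The sh4 and shAMB effects differed most for TM7SF2 (sh4 minus shAMB -2.41 ± 0.33 (SE), adjusted p = 1.72e-05), ABCG1 (-1.15 ± 0.18, adjusted p = 5.74e-05) and INSIG1 (1.04 ± 0.09, adjusted p = 1.03e-07). Over all genes tested, the median of this difference was -1.085 for genes of at least 58% GC and 0.23 for genes of under 45% GC. Median exon GC was 58.6% for the 8 genes called lower and 43.5% for the 10 called higher. With GC and length trends removed, TM7SF2 changed less in both lines. TM7SF2 and ABCG1 fell in sh4 and rose in shAMB. NPC1 did the same (-0.81), and ACAT2 (0.68) and MSMO1 (0.80) went the other way, rising in sh4 and falling in shAMB, but MSMO1 was higher in both lines with GC and length trends removed (0.45 and 0.13). INSIG1 and MYLIP rose, and SC5D and STARD4 fell, in both lines, and for STARD4 the shAMB value was -0.04 with those trends removed.

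Set beside the xenografts, 11 of the 28 genes were called both in shAMB (11 of its 17) and in xenografts (11 of its 16), and all 11 moved the same way: ABCG1 and MYLIP up, and ACAT2, HMGCS1, IDI1, FDPS, FDFT1, SQLE, MSMO1, HSD17B7 and SC5D down. The same held for nearly all other genes, since among all 5071 genes called in both comparisons 98.1% moved the same way. With GC and length trends removed, MSMO1 was called higher in shAMB (0.13) and lower in xenografts (-0.59), and HMGCS1 (-0.01) and HSD17B7 (-0.09) were not called in shAMB. In sh4 and xenografts 6 genes were called in both (6 of 11 and 6 of 16), of which ABCA1, MYLIP and SC5D moved alike and ACAT2, MSMO1 and ABCG1 oppositely, beside 66.8% alike among all 2964 genes called in both. Sizes differed between shAMB and xenografts: ACAT2 changed by -0.50 and -1.55, ABCG1 by 0.78 and 2.83. These differences between culture and xenografts were not tested. MYLIP rose and SC5D fell in sh4, shAMB and xenografts. CYP51A1, MVD, DHCR7, INSIG2 and SREBF1 were called in none of the 3.

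A pair of further lists cover neighbouring steps. Of 11 fatty acid synthesis genes driven by SREBP, 7 fell and 0 rose in the xenografts, led by SCD, stearoyl-CoA desaturase (-1.31, adjusted p = 7.45e-06), and FADS1, a desaturase of polyunsaturated fatty acids (-0.66). In shAMB 6 fell and 2 rose, again led by SCD (-1.43, adjusted p = 1.95e-13), and in sh4 4 fell and 2 rose, led by FADS1 (-0.56, adjusted p = 2.01e-08). The median log2 fold change was -0.40, -0.36 and -0.07 in xenografts, shAMB and sh4, beside 0.02, 0.10 and -0.0046 over all genes tested. Of 21 other sterol and isoprenoid genes 19 were tested, and 7 fell and 4 rose in xenografts, 9 fell and 3 rose in shAMB and 3 fell and 6 rose in sh4. Both lists stand beside the shares of all genes tested, of which 19.9% fell and 21.2% rose in xenografts, 28.4% fell and 37.6% rose in shAMB, and 18% fell and 22.9% rose in sh4. In sh4, 15.8% of the other sterol genes fell, which is near the share of all genes. MBTPS1, the protease that makes the initial cut in SREBP, fell in xenografts (-1.28, adjusted p = 7.07e-06) and in shAMB (-1.16, adjusted p = 8.14e-12) and rose in sh4 (0.18, adjusted p = 0.00374). TMEM97, a sterol-binding membrane protein, fell in xenografts (-0.95) and shAMB (-0.56). SOAT1, which esterifies cholesterol for storage, also fell in both (-0.48 and -0.54). None of the genes of either list was called in the EV line.

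Some of the 28 genes share exon bases with neighbours in GENCODE v44 (hg38), and whether counting used the strand was not given in the sources used here. The share is 68.2% on the same strand for CYP51A1 and 36.4% for EBP, and on the other strand it is 37.7% for HMGCS1, 22.2% for ACAT2, 18.6% for FDPS and 15% for IDI1. Counts of these genes may hold reads of the overlapping gene.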

How the data were processed

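Expected counts (estimated counts that need not be whole) were deposited by the authors for 26485 genes in a culture table of 18 libraries and a xenograft table of 8. The submitters' processing notes name STAR, SAMtools, RSEM and hg38 with no versions, and the labels name a stranded total RNA kit but also polyA RNA as the molecule, which is not settled. TPM tables were not used here. In this re-analysis counts were rounded, filtered by filterByExpr, scaled by TMM and tested with edgeR 4.0.16 in R 4.3.3 (quasi-likelihood F test, two-sided, Benjamini-Hochberg adjustment over all genes tested), with a mean per group in 1 fit for culture and 1 for xenografts. A gene was called at an adjusted p under 0.05. The alternatives were RLE and upper quartile factors, no filter, at least 1 CPM, DESeq2 1.42.0, a log2 fold change of at least 0.5, a replicate block, GC and length trends removed, and each library left out. All 28 genes are named by role, and of other lists at most 4 genes per comparison by smallest adjusted p. The genes and lists were chosen with earlier results of these data known. Fits were tested on simulated data. Chi-square per degree of freedom between replicates was at least 1.80, so that no library was counted as a copy. The deposited gene length in bases gave CPM per kilobase. Exon GC content came from GENCODE v44 and was matched for 92.8% of genes. ERG28 was matched as C14orf1.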

Additional observations from a re-analysis of the deposited data

Results flagged for a closer look

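The doxycycline effect on 42 pairs of gene and comparison differed between lines by the interaction test in edgeR (adjusted p under 0.05). Of all genes tested, 32.6% differed for sh4 minus EV, 45.5% for shAMB minus EV and 60.9% for sh4 minus shAMB. The shares of the 28 genes lay near these. Values are differences of log2 fold changes, and comparisons that share the EV or a hairpin line share those libraries. For sh4 minus EV the effect was more positive for INSIG1 (1.30), ABCA1 (1.03), MSMO1 (0.64) and MYLIP (0.56) and more negative for TM7SF2 (-1.41), MVK (-0.77), PMVK (-0.67), ABCG1 (-0.57), SC5D (-0.55), NPC1 (-0.36) and STARD4 (-0.36). With a library left out in turn (12 fits), calls were lost for ABCG1 (5 fits, -0.56 to -0.42), MVK (5 fits, -0.71 to -0.63) and PMVK (7 fits, -0.66 to -0.53). Without sh4 doxycycline replicate 3, 20 of the 28 genes were called in place of 11. Among all genes tested, 3565 effects were then more positive and 3992 more negative, in place of 2659 and 2197.

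For shAMB minus EV the effect was more positive for TM7SF2 (1.00), ABCG1 (0.58), NPC1 (0.45), MYLIP (0.35) and INSIG1 (0.26) and more negative for ACAT2 (-0.56), HSD17B7 (-0.53), SQLE (-0.48), FDPS (-0.44), IDI1 (-0.38), SC5D (-0.34), FDFT1 (-0.32) and HMGCS1 (-0.26). Calls were lost among the 12 fits for HMGCS1 (10 fits, -0.29 to -0.21), INSIG1 (8 fits, 0.20 to 0.25), MYLIP (4 fits, 0.31 to 0.32) and TM7SF2 (3 fits, 0.87 to 0.89). Under RLE factors, in DESeq2 and without a filter on low counts, only 3 of the 28 genes were called more positive in place of 5. Of all genes tested, 3102, 3039 and 3026 were called more positive there, in place of 3539.

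For sh4 minus shAMB the effect was more positive for INSIG1 (1.04), MSMO1 (0.80), ABCA1 (0.77), ACAT2 (0.68), HSD17B7 (0.64), IDI1 (0.52), HMGCS1 (0.44), FDPS (0.36), SQLE (0.34) and FDFT1 (0.27) and more negative for TM7SF2 (-2.41), ABCG1 (-1.15), SREBF1 (-0.83), NPC1 (-0.81), PMVK (-0.76), MVK (-0.72), SCAP (-0.70) and DHCR7 (-0.56). Calls were lost among the 12 fits for DHCR7 (8 fits, -0.58 to -0.40), SCAP (8 fits, -0.73 to -0.54) and SREBF1 (7 fits, -0.87 to -0.59). With GC content and gene length trends removed, 9 of these 18 calls were lost. The values were then HMGCS1 (-0.022), FDFT1 (-0.0092), SQLE (0.05), IDI1 (0.09), DHCR7 (-0.08), MVK (-0.24), PMVK (-0.19), SREBF1 (0.13) and SCAP (0.11). In the same setting HMGCS1 (-0.15) lost its call for shAMB minus EV, and no call was lost for sh4 minus EV.

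In the control xenografts 1 of 4 tumours lay far from the other 3 for 5 genes (Dixon's test at the 95% level). It was replicate 2 for ACAT2 (83.6 CPM), FDFT1 (63.3 CPM), HSD17B7 (9.35 CPM) and CYP51A1 (137 CPM), each lower than the rest, and for ABCA1 (13.7 CPM), higher than the rest. Without this tumour ACAT2, FDFT1, HSD17B7 and ABCA1 were still called, and CYP51A1 was then called lower (-0.42). Chance flags about 1 in 20 groups, and 56 groups of 4 were examined.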

How the results depend on the processing

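Counts of called genes kept within 1.5 times their value under RLE or upper quartile factors, DESeq2, no filter, a minimum of 1 CPM and removal of GC and length trends, except that the 1 gene of shAMB against EV in DMSO (FDFT1) became 0 without a filter on low counts. Where a log2 fold change of at least 0.5 was required, the counts were 7 in place of 11 for sh4, 5 in place of 17 for shAMB, 4 in place of 13 for shAMB minus EV and 0 in place of 1 for shAMB against EV in DMSO. Of all genes tested, that requirement left 1370 of 3410 rises and 1131 of 2681 falls in sh4. It left 3944 of 5602 and 1983 of 4238 in shAMB, and 2550 of 3539 and 1775 of 3237 for shAMB minus EV. With a library left out in turn the counts ran from 8 to 20 for sh4, 14 to 18 for shAMB, 14 to 20 for xenografts, 8 to 20 for sh4 minus EV, 10 to 13 for shAMB minus EV, 15 to 23 for sh4 minus shAMB and 0 to 1 for shAMB against EV in DMSO. Directions turned only with GC and length trends removed, for genes called in either fit: in shAMB CYP51A1 (0.29), MSMO1 (0.13), INSIG2 (0.20), SREBF1 (-0.38) and SCAP (-0.21). For sh4 minus EV they turned for HMGCS1 (-0.17) and CYP51A1 (-0.21), and for shAMB minus EV for CYP51A1 (0.16), SREBF1 (-0.32) and SCAP (-0.28). For sh4 minus shAMB they turned for HMGCS1 (-0.022), FDFT1 (-0.0092), CYP51A1 (-0.37), INSIG2 (-0.34), SREBF1 (0.13) and SCAP (0.11). The cause was not tested. Upper quartile factors shifted the median of all genes in xenografts by 0.10. RLE factors changed mean levels by -2.98% to 2.24%, and 4 of 224 moved by 1 SD or more. Whether replicate numbers pair the samples cannot be decided from correlations of deviations, because libraries of a group differed in how they measured GC-rich genes. Same-numbered correlations ran from -0.60 to 0.13 in culture and from -0.50 to 0.37 in xenografts. Different-numbered ones ran from -0.32 to 0.60 within culture lines and from -0.56 to 0.60 in xenografts. A replicate block gave 11 of 28 called in sh4, 17 in shAMB and 14 in xenografts, and lost the calls of NSDHL (-0.44) and SCAP (-0.56). Each group has 3 or 4 libraries, and genes near 1 CPM (TM7SF2) rest on as few as 31 counts.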
